A study of Mus musculus with 8 samples.

Results

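The 9 genes described here write, maintain or remove methylation of cytosine in DNA. They are Dnmt1, Dnmt3a, Dnmt3b, Dnmt3l, Uhrf1, Tet1, Tet2, Tet3 and Tdg, taken by gene symbol from the 47729 gene identifiers counted in mouse embryonic stem cells, and all 9 were among the 16515 genes that passed the filter on low counts. RNA was sequenced from 8 libraries of the E14TG2a line (129/Ola strain), 2 per group, after 48 h in medium with 15% serum and LIF, a cytokine that keeps these cells undifferentiated. QT7 and QT7L1 cells, named for TCF7 and TCF7L1, carried 1 of the 4 TCF/LEF genes as +/- and the other 3 as -/-. QKO cells were tagged -/- for TCF7, TCF7L1, TCF7L2 and LEF1, the DNA-binding proteins through which beta-catenin acts on Wnt target genes, and WT cells carried none of these changes.

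The genotype tags gave TCF7L1 as +/- in QT7 and TCF7 as +/- in QT7L1, opposite to the titles, and the titles are followed here. Replicates 1 and 2 were clones A and B in QT7, QT7L1 and QKO and biological replicates 1 and 2 in WT, so each engineered group rests on 2 clones. Levels are in CPM, counts scaled to 1e+06 per library. Transcripts of the deleted genes stayed countable: Tcf7 had 16.6 and 20.9 CPM in QT7, 10.05 and 12.7 CPM in QT7L1, 7.97 and 19.65 CPM in QKO, and 59.5 and 61.9 CPM in WT. Tcf7l1 had 27.4 and 22.4 CPM in QT7, 36.9 and 27.5 CPM in QT7L1, 38.3 and 39.1 CPM in QKO, and 73.5 and 68.8 CPM in WT, so neither transcript stood above both QKO libraries in both clones of a line. Total counts ran between 31.57 and 43.36 (units of 1e+06), and QT7 replicates differed most from each other (chi-square per degree of freedom 57.6, against 18.66 to 22.57 within the other groups). Markers of pluripotent cells were present in every library, with a summed level of 5339 to 6573 CPM over 10 genes and none at 0. Fibroblast markers, which feeder cells would bring, summed to 1323 to 1357 CPM over 15 genes in QT7, 1328 to 1616 CPM in QT7L1, 1032 to 1090 CPM in QKO and 1255 to 1351 CPM in WT. Lum was at 0 counts in all 8 libraries and Dcn at 0 to 3 counts, while Col1a1 ran from 2.58 CPM in QT7 replicate 1 to 51.0 CPM in QKO replicate 1. Primitive endoderm markers summed to 175 to 296 CPM over 12 genes in QT7, 152 to 158 CPM in QT7L1, 149 to 200 CPM in QKO and 164 to 348 CPM in WT, and trophoblast markers to 69.1 to 147 CPM over 10 genes in the 8 libraries. The part of such cells in the results below was not tested. In bulk RNA, fewer expressing cells and less RNA per cell cannot be told apart.

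DNA methyltransferases add a methyl group to cytosine, mostly where it is followed by guanine (CpG). Dnmt3a and Dnmt3b place new methylation with the help of Dnmt3l, a relative with no catalytic activity of its own, and Dnmt1 copies the pattern to the new strand after replication, guided there by the hemimethyl-CpG reader Uhrf1. Tet enzymes oxidise methylcytosine, and the glycosylase Tdg cuts out the oxidised base, which repair then replaces. Stem cells grown in serum are known for high DNA methylation, and cells held in the naive state by inhibitors for low methylation.

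Promoters of Dnmt3b, Uhrf1 and Dnmt1 are shown as the 250 bases before an annotated start, because Dnmt3b was the gene that differed from WT in all 3 engineered groups and Uhrf1 and Dnmt1 share the maintenance role. Sequences are those of RefSeq on GRCm38.p6, in which all 9 genes matched, with 16 annotated starts. The letters searched on both strands were CTTTGAA and CTTTGTT, cores bound by TCF/LEF factors, and TTTCGCGC and TTTGGCGC, forms of the site bound by E2F factors of the cell cycle. Capitals mark a match.
Dnmt3b, chr2:153649199-153649448, plus strand: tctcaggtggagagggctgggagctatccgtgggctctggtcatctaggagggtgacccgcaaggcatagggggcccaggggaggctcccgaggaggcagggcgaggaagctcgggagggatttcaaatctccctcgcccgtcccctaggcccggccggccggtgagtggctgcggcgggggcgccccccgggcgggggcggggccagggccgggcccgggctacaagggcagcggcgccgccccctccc
Uhrf1, chr17:56304063-56304312, plus strand: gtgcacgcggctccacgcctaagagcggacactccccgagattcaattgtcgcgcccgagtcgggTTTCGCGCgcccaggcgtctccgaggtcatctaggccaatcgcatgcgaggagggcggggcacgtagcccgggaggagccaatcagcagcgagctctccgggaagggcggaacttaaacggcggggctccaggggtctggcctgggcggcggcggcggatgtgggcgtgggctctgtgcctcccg
Dnmt1, chr9:20952624-20952873, minus strand: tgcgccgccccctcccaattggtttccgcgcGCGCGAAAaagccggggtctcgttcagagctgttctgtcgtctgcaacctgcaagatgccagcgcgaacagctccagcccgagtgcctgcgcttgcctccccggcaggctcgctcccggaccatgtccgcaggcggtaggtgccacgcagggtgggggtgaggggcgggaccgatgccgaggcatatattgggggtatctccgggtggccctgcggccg

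The Dnmt3b window held none of the 4 motifs. The Uhrf1 window held TTTCGCGC with its first base 185 bases before the start, and the Dnmt1 window held it on the opposite strand, 219 bases before the start. Uhrf1 has 2 annotated starts and Dnmt1 has 3, and the windows shown are those that held an E2F form. Both lie downstream of another annotated start of the same gene. That start is at position 56303337 on chromosome 17 for Uhrf1 and 20952979 on chromosome 9 for Dnmt1. Of the 16 windows, these 2 were the only ones with such a form. A TCF/LEF core (CTTTGAA, opposite strand) stood 199 bases before another Dnmt1 start, at position 20959888 on chromosome 9, and in no other window of the 16. Over all 32851 promoter windows of this length, 9.17% held a TCF/LEF core and 0.654% an E2F form. CpG counts ran from 2 in one Dnmt1 window to 51 in the Tet2 window, around a median of 6 over all promoters, and the Dnmt3b window had 21. These matches describe letters only.

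Levels differed widely among the 9 genes when set per kb of exon (CPM per kb, using merged exons of GENCODE M21). In WT, Dnmt3l (150 ± 0.568, SD, n = 2) and Uhrf1 (122 ± 2.70) stood highest, followed by Dnmt1 (63.7 ± 4.17), Dnmt3b (58.3 ± 10.1) and Tet1 (45.5 ± 5.96). Dnmt1 and Dnmt3b did not differ beyond their spread, and neither did Dnmt3a (12.1 ± 1.8) and Tet2 (11.6 ± 0.227). Tdg followed at 7.82 ± 0.0562, and Tet3 was lowest at 1.32 ± 0.154 CPM per kb. Uhrf1 lay above Dnmt3l in QT7L1, at 133 ± 6.47 and 105 ± 18.9 CPM per kb. Tet3 was lowest in the other groups as well, at 0.953 ± 0.0976 in QT7, 1.04 ± 0.0529 in QT7L1 and 0.743 ± 0.131 CPM per kb in QKO. Dnmt3b stood at 28.4 ± 1.73 in QT7, 28.2 ± 5.36 in QT7L1 and 40.2 ± 3.91 CPM per kb in QKO. Tet1, below Dnmt3b in WT and QKO, lay above it at 36.2 ± 1.56 in QT7 and 35.5 ± 3.68 CPM per kb in QT7L1.

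**Figure D1:**
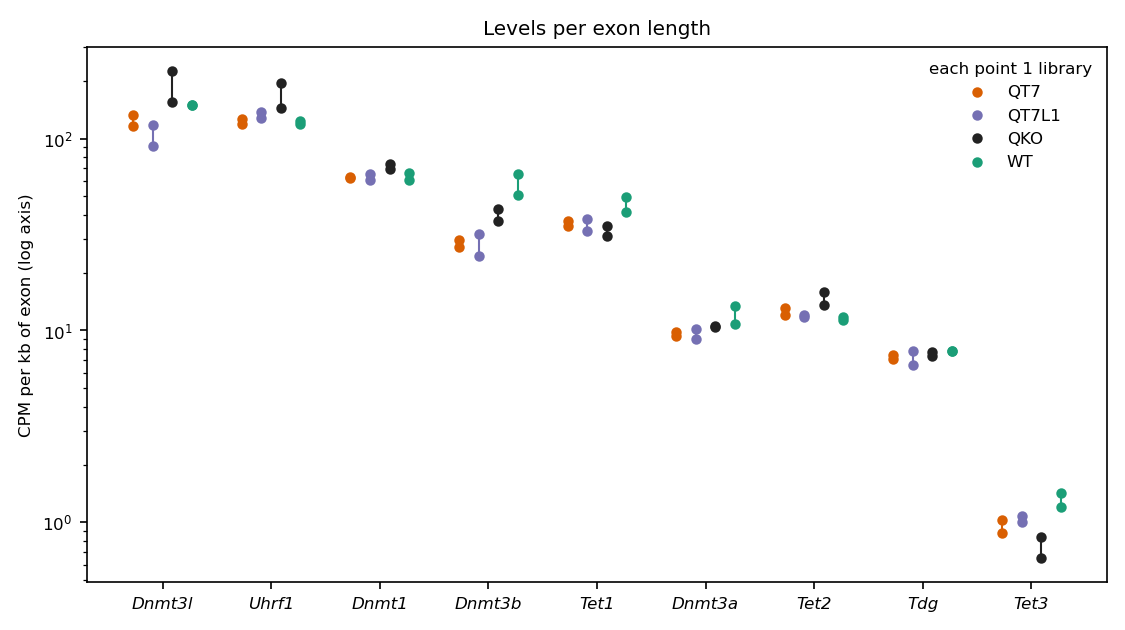
Level of each gene in CPM per kb of exon (log axis), genes ordered by their WT mean, each point 1 library and the line joining the 2 libraries of a group. Dnmt3l and Uhrf1 lie at 91.3 CPM per kb or above in every library and Tet3 at 1.43 or below.

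In QKO, 5 of the 9 genes differed from WT (Uhrf1 and Tet2 higher, Dnmt3b, Tet1 and Tet3 lower), where 26.4% of all genes tested did. The median size of change over the 9, 0.36 on the log2 scale, was that of all genes (0.36). In QT7, 3 of 9 were lower than in QKO and none higher, beside 26.9% of all genes called. In QT7L1, 3 of 9 were again lower than in QKO and none higher, beside 29.7%. These comparisons share the QKO libraries. Against WT, Dnmt3b alone differed, in QT7 (1 of 9, with 4.62% of all genes called, 2.37% higher and 2.25% lower) and in QT7L1 (1 of 9, with 0.745% called, 0.297% higher and 0.448% lower), and the WT libraries are common to both.

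**Figure D2:**
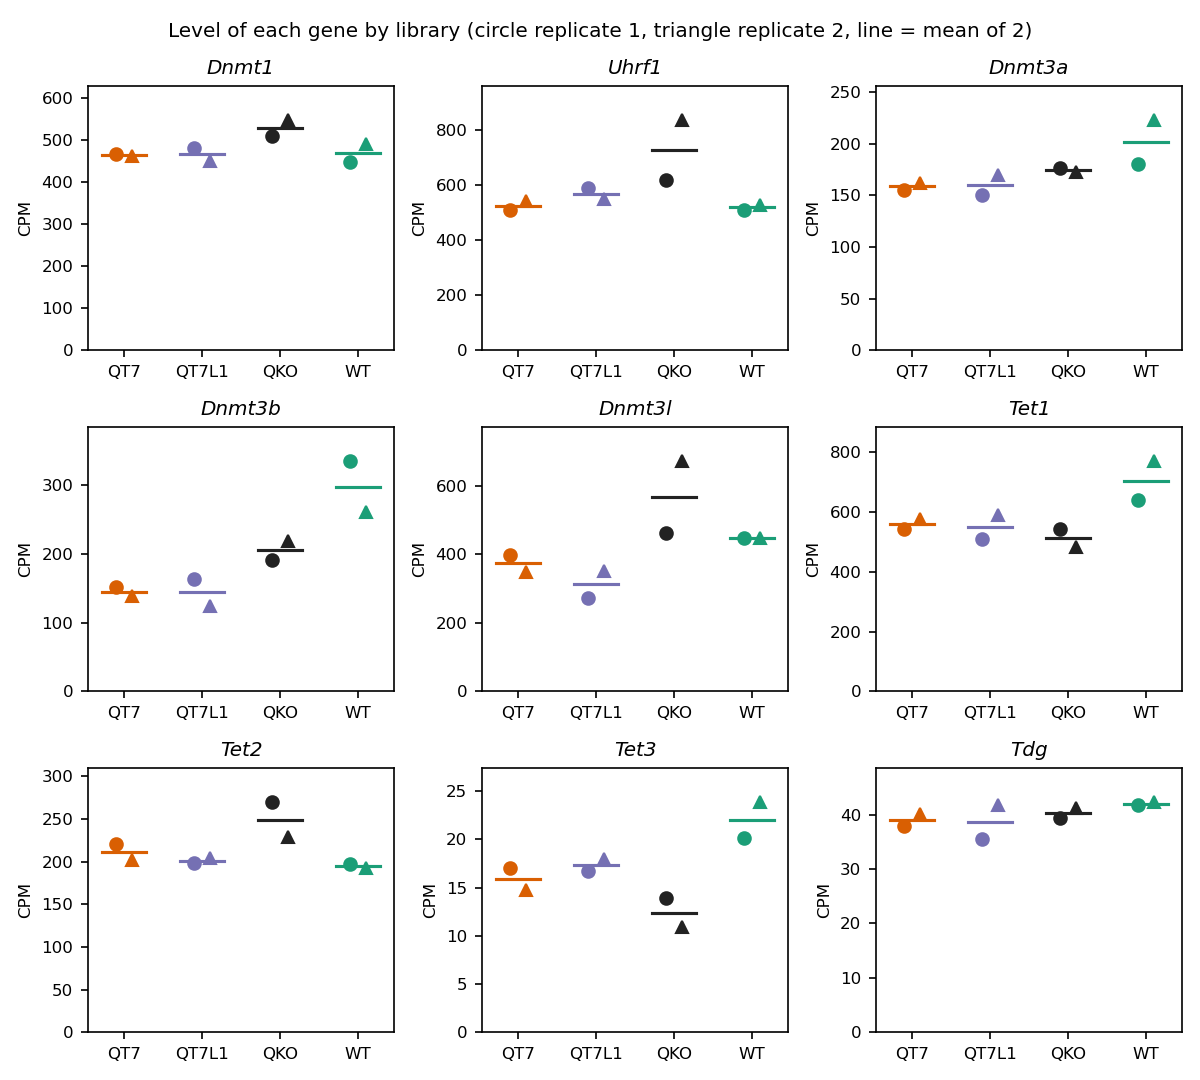
CPM of the 9 genes in each library, with QT7, QT7L1, QKO and WT from left to right, circles for replicate 1, triangles for replicate 2 and a line for the mean of 2. Dnmt3b is highest in both WT libraries and lowest in QT7 and QT7L1, whereas Uhrf1 and Tet2 are highest in both QKO libraries.

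Dnmt3b, the main de novo enzyme of the early embryo, was lower in every engineered group than in WT, and lowest in QT7 and QT7L1. It had 151.5 and 139 CPM in QT7, 163 and 125 CPM in QT7L1, 191 and 219.6 CPM in QKO, and 335 and 261 CPM in WT. The 4 libraries of QT7 and QT7L1 lay below both QKO libraries, and those below both WT libraries, with no overlap. In QT7 it was at 0.488-fold the WT level (log2 fold change -1.04 ± 0.16, SE; adjusted p = 0.0101, edgeR quasi-likelihood test with Benjamini-Hochberg adjustment) and in QT7L1 at 0.483-fold (-1.05 ± 0.16; adjusted p = 0.0251).

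Of the 16515 genes ranked by p, Dnmt3b was at rank 105 in QT7 against WT and rank 39 in QT7L1 against WT. In QKO it fell by 0.54 on the log2 scale relative to WT (SE 0.15, adjusted p = 0.0308). In QT7 it fell by 0.50 relative to QKO (SE 0.15, adjusted p = 0.0385), and in QT7L1 by 0.51 (SE 0.16, adjusted p = 0.0329). QT7 and QT7L1 were 0.01 apart on the log2 scale for Dnmt3b, with a 95% interval of -0.33 to 0.36. In the authors' deposited table WT over QT7 was 0.98 (adjusted p = 1.67e-08) and WT over QT7L1 was 0.99 (adjusted p = 4.27e-08).

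The sign for Dnmt3b in these 5 comparisons was the same under every alternative run, but calls depended on single libraries. Relative to WT, QT7 did not pass without WT replicate 1 (adjusted p = 0.0741, range over 8 omissions 0.0108 to 0.0741). QT7L1 did not pass without WT replicate 1 (0.165), QT7L1 replicate 1 (0.0753) or QT7L1 replicate 2 (0.189, range 0.0143 to 0.189), where log2 fold changes were -0.86, -1.25 and -0.86. QKO did not pass relative to WT without WT replicate 1 (0.173), QKO replicate 1 (0.163) or QKO replicate 2 (0.0833, range 0.0247 to 0.173). Relative to QKO, QT7 did not pass without either QKO library (0.0705 and 0.216) or either QT7 library (0.0731 and 0.135, range 0.0279 to 0.216). QT7L1 did not pass relative to QKO without either QKO library (0.0621 and 0.198) or QT7L1 replicate 2 (0.228, range 0.0238 to 0.228). Dnmt3c, a rodent duplicate of Dnmt3b whose reads could be confused with it, had 0 to 11 counts per library, and the antisense Dnmt3bos had 0 to 4.

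**Figure D3:**
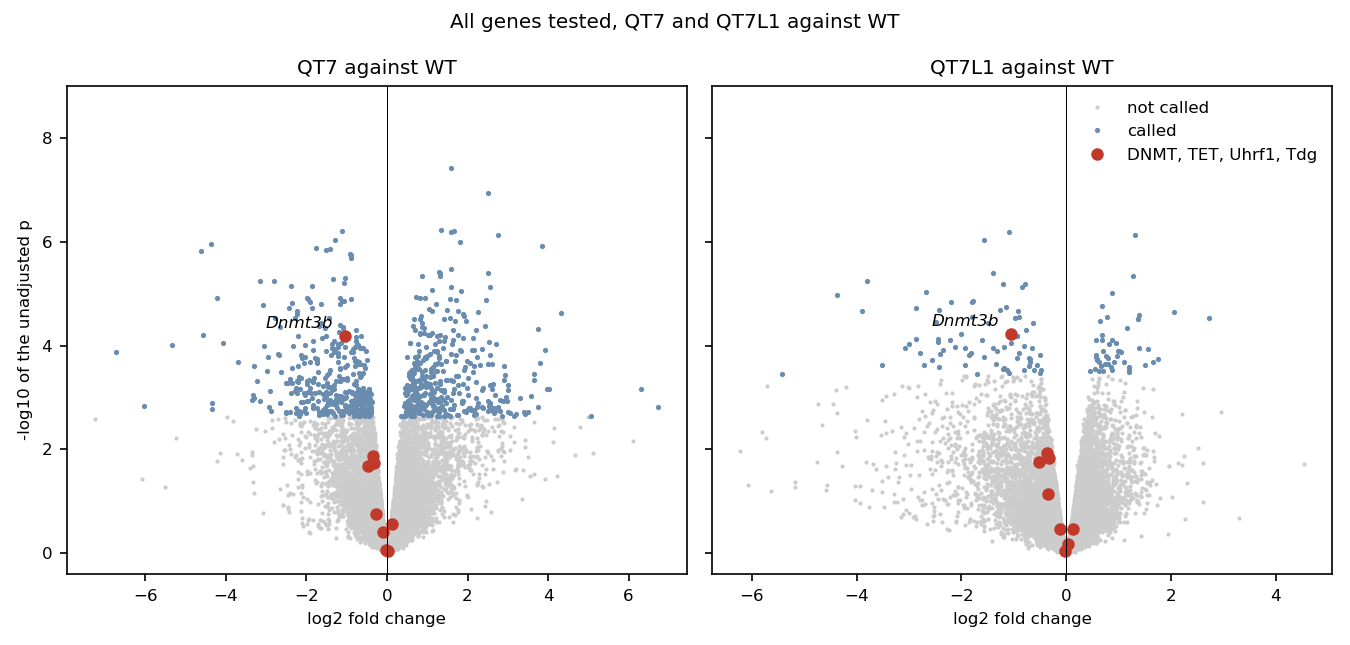
All 16515 genes in QT7 against WT (left) and QT7L1 against WT (right), with the log2 fold change on the x axis and -log10 of the unadjusted p on the y axis. Blue points passed an adjusted p of 0.05, and of the red points, the 9 genes, Dnmt3b is the one that passed, at -1.04 and -1.05.

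Dnmt3a, the other de novo enzyme, was not called in any comparison. It had 156 and 162 CPM in QT7, 150.1 and 169.7 CPM in QT7L1, 176 and 173 CPM in QKO, and 180.2 and 223 CPM in WT. Both WT libraries were above the other 6, with log2 fold changes of -0.34 ± 0.11 in QT7 (adjusted p = 0.117), -0.33 ± 0.11 in QT7L1 (0.207) and -0.21 ± 0.11 in QKO (0.204) relative to WT. The ratio of Dnmt3b to Dnmt3a per kb of exon, which does not depend on library scaling, was 3.17 and 2.79 in QT7, 3.54 and 2.39 in QT7L1, 3.54 and 4.14 in QKO, and 6.05 and 3.82 in WT. These ratios overlap between QKO and WT, and between QT7L1 and QKO.

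Dnmt3l, the catalytically inactive partner of Dnmt3a and Dnmt3b, was lower in both QT7 and QT7L1 than in QKO. It had 399 and 349 CPM in QT7, 273 and 353 CPM in QT7L1, 462 and 671 CPM in QKO, and 449 and 447 CPM in WT. Both QKO libraries lay above all others, but QKO replicate 1 was close to WT. In QT7L1 it was at 0.552-fold the QKO level (log2 -0.86 ± 0.18, adjusted p = 0.00857) and in QT7 at 0.660-fold (-0.60 ± 0.18, adjusted p = 0.036). In QKO it was at 0.34 ± 0.18 relative to WT (adjusted p = 0.19), in QT7 at -0.26 ± 0.18 (0.471) and in QT7L1 at -0.52 ± 0.18 (0.219).

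The Dnmt3l calls rested much on QKO replicate 2. Without it, QT7L1 was at -0.56 relative to QKO (adjusted p = 0.0523) and QT7 at -0.31 (0.239). QT7L1 also did not pass without QT7L1 replicate 1 (0.0657, range over 8 omissions 0.00561 to 0.0657). QT7 did not pass in the fit of the 4 QT7 and QKO libraries alone (0.058), nor without WT replicate 1 (0.0624), WT replicate 2 (0.0634), QT7 replicate 1 (0.0699) or QT7 replicate 2 (0.152, range 0.0119 to 0.239). In QKO relative to WT, Dnmt3l passed without QKO replicate 1 (0.57, adjusted p = 0.0411, range 0.0411 to 0.906) and was at 0.04 without QKO replicate 2.

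Uhrf1, which brings Dnmt1 to newly copied DNA, was higher in QKO than in WT and lower in QT7 than in QKO. It had 508 and 541 CPM in QT7, 587 and 548 CPM in QT7L1, 618 and 833 CPM in QKO, and 510.5 and 527 CPM in WT. Both QKO libraries were above the other 6, and QKO replicate 2 far more so. In QKO it rose by 0.48 on the log2 scale relative to WT (SE 0.13, 1.40-fold, adjusted p = 0.021), and in QT7 it fell by 0.47 relative to QKO (SE 0.13, adjusted p = 0.0227). In QT7L1 it was at -0.35 ± 0.13 relative to QKO and missed the threshold (adjusted p = 0.0601), with the range over 8 omissions from 0.014 (without QKO replicate 1) to 0.529. That difference passed in DESeq2 (0.0327), with RLE scaling (0.0499) and without the filter on low counts (0.0095). In the authors' deposited table QKO over QT7L1 was 0.35 and did not pass (adjusted p = 0.0543).

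The Uhrf1 rise was 0.25 without QKO replicate 2 (adjusted p = 0.198), and it did not pass without WT replicate 1 (0.0887) or WT replicate 2 (0.101, range 0.0097 to 0.198). The fall in QT7 did not pass without QKO replicate 2 (0.206), without QT7 replicate 1 (0.08, range 0.00928 to 0.206) or with the 4 libraries of QT7 and QKO alone (0.0616). Relative to WT, Uhrf1 was at 0.02 in QT7 (95% interval -0.27 to 0.30) and 0.13 in QT7L1 (-0.15 to 0.41). Dnmt1, the maintenance enzyme itself, was not called in any comparison. It had 467 and 462 CPM in QT7, 482 and 449.8 CPM in QT7L1, 510.4 and 546 CPM in QKO, and 448 and 492 CPM in WT. Its QKO libraries were the highest, yet by only 0.17 ± 0.09 relative to WT (adjusted p = 0.193), and its log2 difference from WT was -0.02 in QT7 (-0.22 to 0.18) and -0.01 in QT7L1 (-0.21 to 0.19). The ratio of Uhrf1 to Dnmt1 per kb was 1.89 and 2.03 in QT7, 2.11 and 2.11 in QT7L1, 2.1 and 2.64 in QKO, and 1.97 and 1.86 in WT. A list of genes of maintenance methylation and of S-phase replication is described further on. Its mean gene-centred log2 levels were -0.18 and -0.11 in QT7, -0.03 and 0 in QT7L1, 0.15 and 0.30 in QKO, and -0.05 and -0.09 in WT. The listed genes were thus highest in the QKO library in which Uhrf1 was highest, and their part in the Uhrf1 result was not tested.

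Tet1 and Tet2, the Tet enzymes most abundant in these cells, moved in opposite directions in QKO. Tet1 had 542 and 576 CPM in QT7, 508 and 588 CPM in QT7L1, 543 and 482.5 CPM in QKO, and 638 and 768 CPM in WT. The 6 engineered libraries overlapped one another and lay below both WT libraries. Tet1 fell by 0.46 on the log2 scale in QKO relative to WT (SE 0.12, adjusted p = 0.0191), and relative to QKO it was at 0.13 ± 0.12 in QT7 (adjusted p = 0.462) and 0.10 ± 0.12 in QT7L1 (0.569). Against WT it was at -0.33 ± 0.12 in QT7 (0.14) and -0.36 ± 0.12 in QT7L1 (0.187). The fall in QKO did not pass without WT replicate 2 (adjusted p = 0.167) or QKO replicate 2 (0.136, range over 8 omissions 0.0114 to 0.167).

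Tet2, which unlike Tet1 and Tet3 lacks a CXXC DNA-binding domain, had 220.5 and 202 CPM in QT7, 198 and 204 CPM in QT7L1, 269.5 and 229.6 CPM in QKO, and 198 and 192 CPM in WT. Both QKO libraries were the highest of the 8. In QKO it rose by 0.36 relative to WT (SE 0.10, adjusted p = 0.0279), and in QT7L1 it fell by 0.31 relative to QKO (SE 0.10, adjusted p = 0.042), while QT7 was at -0.24 ± 0.10 (0.104). The rise in QKO did not pass without WT replicate 1 (0.0802), WT replicate 2 (0.149), QKO replicate 1 (0.221), QT7L1 replicate 1 (0.0502) or QT7L1 replicate 2 (0.05, range 0.0182 to 0.221). The fall in QT7L1 did not pass without either WT library (0.0597 and 0.0585), QKO replicate 1 (0.302), or either QT7L1 library (0.19 and 0.144, range 0.0319 to 0.302). In the authors' deposited table QKO over QT7L1 was 0.31 for Tet2 and did not pass (adjusted p = 0.0532). The ratio of Tet1 to Tet2 per kb was 2.68 and 3.11 in QT7, 2.79 and 3.14 in QT7L1, 2.20 and 2.29 in QKO, and 3.52 and 4.36 in WT. By this ratio QKO was lowest, WT highest, and QT7 and QT7L1 overlapped in between.

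Tet3, the Tet enzyme prominent in the egg and in differentiating cells, was the least abundant member and fell most in QKO. It had 17.1 and 14.8 CPM in QT7, 16.7 and 17.97 CPM in QT7L1, 14.0 and 10.9 CPM in QKO, and 20.2 and 23.8 CPM in WT. In QKO it was at 0.564-fold the WT level (log2 -0.83 ± 0.17, adjusted p = 0.00797). Both QT7 and QT7L1 lay between QKO and WT, at 0.36 ± 0.17 (adjusted p = 0.15) and 0.48 ± 0.17 (0.0592) relative to QKO, and at -0.47 ± 0.17 (0.152) and -0.34 ± 0.17 (0.377) relative to WT. The fall in QKO did not pass without WT replicate 2 (0.0756) or QKO replicate 2 (0.0812, range over 8 omissions 0.0032 to 0.0812). In QT7L1 relative to QKO, Tet3 passed without QT7 replicate 1 (0.0372), QT7 replicate 2 (0.0368, range 0.0368 to 0.342) and in the fit of those 4 libraries alone (0.0381).

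Tdg, the glycosylase that removes oxidised methylcytosine, showed no called change. It had 37.95 and 40.1 CPM in QT7, 35.5 and 41.8 CPM in QT7L1, 39.35 and 41.3 CPM in QKO, and 41.8 and 42.2 CPM in WT. In QKO relative to WT the 95% interval of its log2 fold change was -0.32 to 0.20. The pseudogene Tdg-ps had 11 to 22 counts per library, and Glt8d2, an opposite-strand gene that shares 6.83% of Tdg's exon bases, had 2 to 9. Aire shares 2.24% of the exon bases of Dnmt3l on the opposite strand and had 592 to 1692 counts, and whether strand was used in counting is not given in the sources used here.

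Between QT7 and QT7L1, none of the 9 genes was called with edgeR, none had an unadjusted p under 0.05, and none was called with DESeq2, which called 232 genes overall against 1 (0.00606%) with edgeR. The widest of the 9 differences was that of Dnmt3l at 0.26 (95% interval -0.15 to 0.66). Differences within such an interval could not be told from 0 with 2 clones per line.

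**Figure D4:**
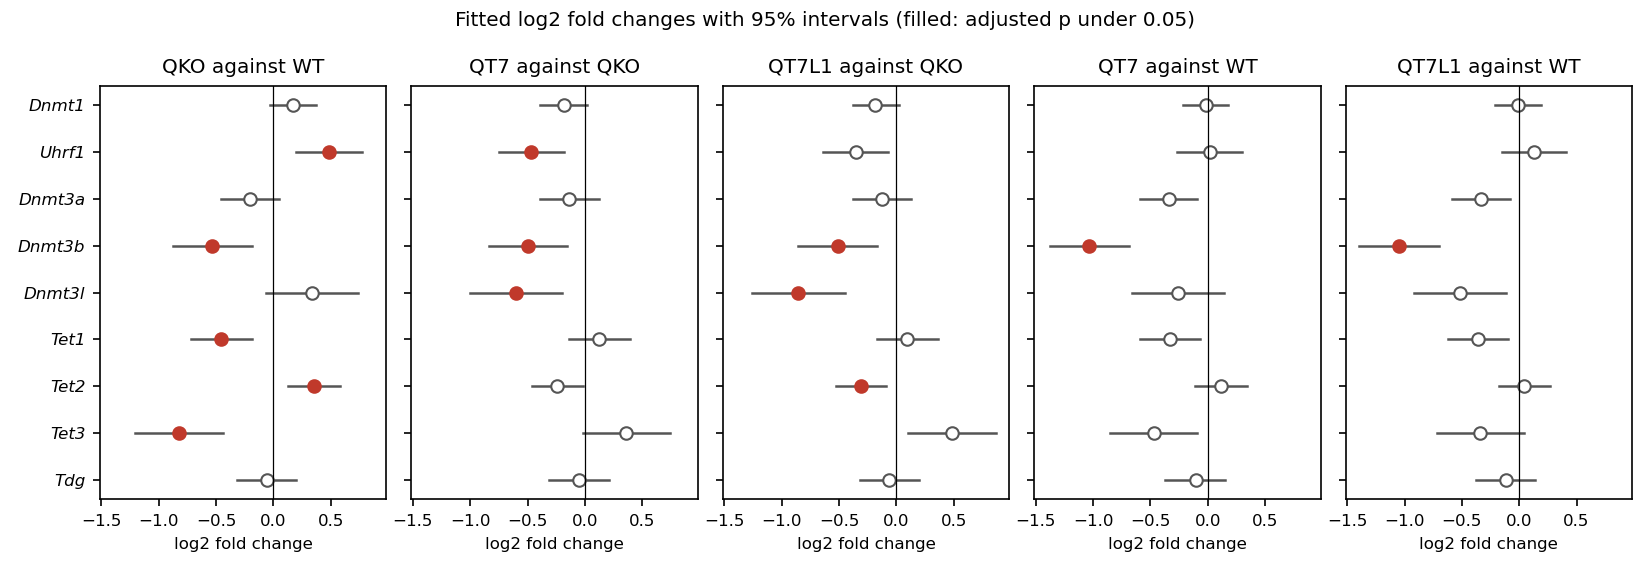
Fitted log2 fold changes of the 9 genes with 95% intervals in 5 comparisons, the first-named group over the second, filled where the adjusted p was under 0.05. Dnmt3b lies left of 0 in all 5 panels, at -0.54, -0.50, -0.51, -1.04 and -1.05.

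Genes with the most similar profile over the 8 libraries were ranked by the root mean square difference of gene-centred log2 CPM. For Dnmt3b they were Tdrd12 (0.097), a Tudor-domain gene of the piRNA pathway, Tpm1 (0.111), a tropomyosin, and Mycn (0.12), a MYC family factor, beside a spread of 0.485 (SD) for Dnmt3b itself. For Uhrf1 they included the ribonucleotide reductase subunit Rrm2 (0.069) and Rexo4 (0.074), with an SD of 0.235. For Dnmt3l they were the exportin Xpo4 and the ion transporter Slc12a2 (0.105 each) and the importin Ipo13 (0.128), with an SD of 0.381. Tet1 was nearest to Sec24d (0.073), Arhgap23 (0.077) and Med13l (0.083), Tet2 to Spcs1 (0.05), Atp2a2 (0.052) and Sfr1 (0.053), and Tet3 to Lpgat1 (0.075), Npepps (0.094) and Crebl2 (0.098).

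Of 16 genes of maintenance methylation and of S-phase replication, 4 rose in QKO relative to WT, none fell and 12 did not pass (median 0.23). Among all genes, 11.7% were called higher and 14.7% lower. The list includes general S-phase genes, such as the Mcm helicase subunits and the cyclin Ccne1. Hells, a remodeller needed for normal DNA methylation, stood at 613 ± 81.4 CPM in QKO (SD, n = 2) and 353 ± 54.35 CPM in WT (log2 0.80 ± 0.14, adjusted p = 0.00483). The sliding clamp Pcna (0.59 ± 0.12), the helicase subunit Mcm5 (0.47 ± 0.09) and the DNA ligase Lig1 (0.54 ± 0.10) rose with it. In QT7, 8 of the 16 fell relative to QKO and 1 rose, beside 12.1% lower and 14.8% higher, with Pcna at -0.78 ± 0.12, Hells at -0.82 ± 0.14 and the cyclin Ccne1 at -1.12 ± 0.20. In QT7L1, 6 fell and 1 rose, beside 13.9% lower and 15.9% higher, with Hells at -0.91 ± 0.15 and Mcm2 at -0.35 ± 0.09. The gene that rose in both lines was Uhrf2, the relative of Uhrf1, at 0.46 ± 0.11 and 0.50 ± 0.11. Leaving out 1 library at a time gave 2 to 5 higher in QKO (2 without WT replicate 2) and 0 to 1 lower (1 without WT replicate 1), 4 to 8 lower in QT7 (4 without QKO replicate 2 and 5 without QT7 replicate 1) and 1 to 6 lower in QT7L1 (1 without QKO replicate 2 or either QT7L1 library, 3 without QKO replicate 1). Hells passed in all 3 comparisons under all 8 omissions, as did Lig1 in QKO and Pcna, Mcm5 and Ccne1 in QT7. Uhrf2 did not pass in either line without either QKO library, nor in QT7L1 without QT7L1 replicate 2 (highest adjusted p 0.0786 in QT7 and 0.0567 in QT7L1). In QKO, Pcna did not pass without WT replicate 2 or QKO replicate 2 (highest 0.0674) and Mcm5 without WT replicate 2 (0.0577). In QT7L1, Mcm2 did not pass without any 1 of the QKO and QT7L1 libraries (highest 0.104).

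Of 16 factors that steer DNMT and UHRF1 activity or recruit methylation, 8 rose in QKO relative to WT, 1 fell and 7 did not pass (median 0.51). The list pools factors that favour methylation with some that oppose it, such as Prdm14, which was among the 8 that rose. Its counts therefore give no direction for methylation. Over all genes tested, 11.7% were called higher and 14.7% lower there. Trim28, the corepressor that holds methylation at imprints and retroelements, averaged 3336 ± 2.68 CPM in QKO and 1881 ± 190.3 CPM in WT (0.83 ± 0.11, adjusted p = 0.00122). Zfp57, its DNA-binding partner at imprints, rose by 0.89 (SE 0.16), and the RNA-binding protein Lin28a by 0.57 (SE 0.11). Dppa3, which keeps Uhrf1 from chromatin in the egg, fell to 0.910 ± 0.321 CPM in QKO, against 13.6 ± 2.66 CPM in WT (adjusted p = 0.00636). It stayed at 1.36 ± 0.853 CPM in QT7 and 2.20 ± 1.82 CPM in QT7L1, where relative to QKO it was not called (adjusted p = 0.583 and 0.194). In QT7, 6 of the 16 fell relative to QKO and none rose, beside 12.1% of all genes lower and 14.8% higher. In QT7L1, 8 fell and none rose, beside 13.9% lower and 15.9% higher. Trim28 (-0.97 ± 0.11 in QT7, -0.85 ± 0.11 in QT7L1), Lin28a (-0.93 ± 0.11, -0.85 ± 0.11) and Myc (-1.43 ± 0.21, -1.19 ± 0.21) were among the listed genes that fell. With edgeR, 9 and 11 of the 16 had an unadjusted p under 0.05 in QT7 and in QT7L1, and DESeq2 also gave 0 higher in both. With single libraries left out, 3 to 8 were higher in QKO (3 without QKO replicate 2, 4 without WT replicate 2 or QKO replicate 1) and 0 to 2 lower (0 without either QKO library, 2 without either QT7 library). In QT7, 3 to 6 were lower (3 without QKO replicate 2) and 0 to 1 higher (1 without QT7 replicate 2). In QT7L1, 3 to 10 were lower (3 without either QT7L1 library, 4 without QKO replicate 2, 5 without QKO replicate 1). Trim28 passed in all 3 comparisons under all 8 omissions, as did Zfp57 in QKO and Lin28a and Myc in both lines. In QKO, Dppa3 did not pass without either QKO library (highest adjusted p 0.0597), nor Lin28a without WT replicate 2 or QKO replicate 2 (0.0617).

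Of 15 genes tested that supply the methyl donor S-adenosylmethionine, 6 rose in QKO relative to WT, 1 fell and 8 did not pass. The shares over all genes were 11.7% higher and 14.7% lower. The thymidylate synthase Tyms (0.50 ± 0.11) and the threonine dehydrogenase Tdh (0.51 ± 0.12) were among those that rose, while the methyltransferase Gnmt fell to 0.269 ± 0.146 CPM in QKO, against 1.74 ± 1.00 CPM in WT. In QT7, 5 fell and 1 rose relative to QKO, beside 12.1% of all genes lower and 14.8% higher. In QT7L1, 4 fell and 1 rose, beside 13.9% lower and 15.9% higher. Mat2a, which makes S-adenosylmethionine, averaged 250.4 ± 15.9 CPM in QT7 and 246 ± 4.94 CPM in QT7L1, against 544 ± 36.0 CPM in QKO (-1.12 ± 0.15 and -1.15 ± 0.15, adjusted p = 0.0016 and 0.00125). With single libraries left out, 0 to 6 were higher in QKO (0 without WT replicate 2, 1 without QKO replicate 2, 2 without QKO replicate 1) and 0 to 1 lower. Gnmt, the 1 lower, did not pass without WT replicate 2 or QKO replicate 2 (highest adjusted p 0.0755), nor did Tdh (0.118), and Tyms did not pass without WT replicate 2 or QKO replicate 1 (0.0901). In QT7, 3 to 8 were lower (3 without either QKO library, 8 without QT7 replicate 2), and the 1 that rose, again Gnmt, passed under 3 of 8 omissions. In QT7L1, 1 to 4 were lower (1 without QKO replicate 2 or QT7L1 replicate 2, 2 without QKO replicate 1 or QT7L1 replicate 1). Mat2a in both lines and Gnmt in QT7L1, where it was the gene that rose, passed under all 8 omissions.

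**Figure D5:**
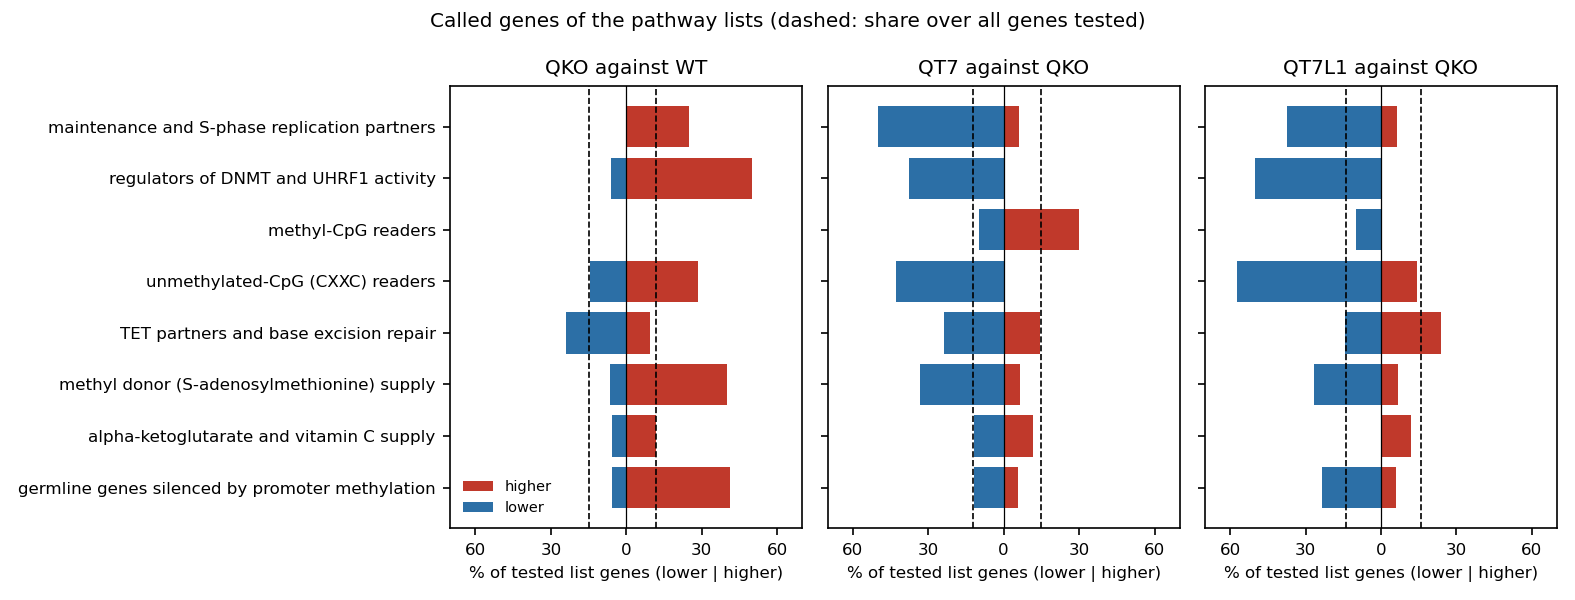
Share of the tested genes of 8 pathway lists called higher (red, right) or lower (blue, left) in 3 comparisons, in percent, with dashed lines at the share over all genes tested. The regulators of DNMT and UHRF1 activity show 8 of 16 higher in QKO and 8 of 16 lower in QT7L1.

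On the repair side of demethylation, calls went both ways. Of 21 Tet partners and base excision repair genes, 2 rose in QKO relative to WT, 5 fell and 14 did not pass. Among all genes, 11.7% were called higher and 14.7% lower. The endonuclease Apex1 (0.73 ± 0.11) and the cytidine deaminase Apobec3 (0.51 ± 0.11) rose, and the glycosylase Neil2 fell to 4.25 ± 0.0901 CPM in QKO, against 12.2 ± 0.248 CPM in WT (adjusted p = 0.000771). In QT7, 3 rose and 5 fell relative to QKO, beside 14.8% of all genes higher and 12.1% lower. In QT7L1, 5 rose and 3 fell, beside 15.9% higher and 13.9% lower. Neil2 rose by 1.53 in QT7 and 1.57 in QT7L1 (SE 0.17 each), and Apex1 fell by 0.81 and 0.74 (SE 0.11 each). Neil2 and Apex1 passed in all 3 comparisons under all 8 omissions, and Apobec3 did not pass without WT replicate 2 or QKO replicate 2 (adjusted p = 0.0707 for both). With single libraries left out, 2 to 5 were lower in QKO (2 without WT replicate 2 or QKO replicate 1, 3 without WT replicate 1 or QKO replicate 2) and 1 to 4 higher (1 without WT replicate 2 or QKO replicate 2, 4 without either QT7 library). In QT7, 2 to 5 were lower (2 without either QKO library, 3 without QT7 replicate 1). In QT7L1, 3 to 6 were higher (3 without either QKO library or QT7L1 replicate 1) and 1 to 5 lower (1 without QKO replicate 2 or QT7L1 replicate 2, 5 without either QT7 library).

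A list of 17 genes covered alpha-ketoglutarate and vitamin C, which Tet enzymes need. It also held enzymes that use alpha-ketoglutarate or act after it, such as Ogdh and Sdha. In QKO, 2 rose and 1 fell relative to WT, beside 11.7% of all genes higher and 14.7% lower. Relative to QKO, 2 rose and 2 fell in QT7, beside 14.8% higher and 12.1% lower. In QT7L1, 2 rose and none fell, beside 15.9% higher and 13.9% lower. The isocitrate dehydrogenases Idh1 (0.50 ± 0.12, 0.39 ± 0.12) and Idh2 (0.60 ± 0.16, 0.67 ± 0.16) were those that rose in QT7 and QT7L1 relative to QKO. In QT7L1, 5 of the 17 had an unadjusted p under 0.05 with edgeR, and DESeq2 called 1 lower. The number that rose was 0 in QKO without WT replicate 2 or QKO replicate 1, 0 in QT7 without QKO replicate 1 and 0 in QT7L1 without either QT7L1 library. It was 1 in QKO without WT replicate 1 or QKO replicate 2, 1 in QT7 without QKO replicate 2 and 1 in QT7L1 without either QKO library. The number that fell in QT7 was 2 without either WT library and 0 under the other omissions, and the 1 that fell in QKO did not pass without QKO replicate 1, while 2 fell there without either QT7L1 library. In QT7L1, 1 fell without either QT7 library. Idh1 passed under 7 of 8 omissions in QT7 and 5 in QT7L1, and Idh2 under 5 in each.

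Of the 10 genes listed as readers of methylated CpG, some, Mbd3 among them, do not bind it selectively. In QKO relative to WT, 0 of 10 were called with edgeR, beside 11.7% of all genes higher and 14.7% lower. At an unadjusted p under 0.05 there were 6 of 10, and DESeq2 called 0. In QT7, 3 rose and 1 fell relative to QKO, beside 14.8% of all genes higher and 12.1% lower. Zbtb38 was at 0.94 ± 0.21 and Mbd3, a subunit of the NuRD complex, at -0.53 ± 0.10. In QT7L1 only Mbd3 was called (-0.36 ± 0.10), beside 15.9% higher and 13.9% lower. Of 7 genes with a CXXC domain that binds unmethylated CpG, 2 rose and 1 fell in QKO, 3 fell in QT7, and 4 fell and 1 rose in QT7L1. The shares over all genes are those just given for each comparison. Cxxc1 was at 0.53 ± 0.13 in QKO relative to WT, and at -0.43 ± 0.13 in QT7 and -0.51 ± 0.13 in QT7L1 relative to QKO. Without either QT7 library, 2 readers were higher and 1 lower in QKO. The number of readers that rose in QT7 was 3 without QT7 replicate 2, 2 without QT7 replicate 1, 0 without QKO replicate 2 and 1 under the other omissions, and Zbtb38 did not pass without QKO replicate 2 (adjusted p = 0.102). Mbd3 passed under all 8 omissions in QT7, and in QT7L1 it did not pass without any 1 of the QKO and QT7L1 libraries (highest 0.134), while 2 fell without either QT7 library. None of the CXXC genes was called in QKO without either WT library or QKO replicate 2, and 1 rose and none fell there without either QT7L1 library. At most 2 of them fell in QT7 under any omission, and none without QKO replicate 2. In QT7L1 none rose or fell without QKO replicate 2 or either QT7L1 library. Cxxc1 passed under 5 of 8 omissions in QKO (highest adjusted p 0.172), 3 in QT7 (0.306) and 5 in QT7L1 (0.178).

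Germline genes whose promoters are known to be silenced by DNA methylation were examined because they can report on its loss, although no methylation was measured here. Of 17 tested, 7 rose in QKO relative to WT, 1 fell and 9 did not pass (median 0.77, against -0.01 over all genes). Over all genes, 11.7% were called higher and 14.7% lower. Tex19.1 averaged 62.9 ± 1.78 CPM in QKO and 27.4 ± 3.39 CPM in WT, Syce1 38.4 ± 3.64 and 14.4 ± 3.74 CPM, and Stk31 12.2 ± 0.288 and 4.72 ± 0.453 CPM. The synaptonemal complex gene Sycp3 went the other way, at 5.91 ± 0.595 CPM in QKO and 15.9 ± 1.39 CPM in WT. In QT7, 1 rose and 2 fell relative to QKO, beside 14.8% of all genes higher and 12.1% lower. In QT7L1, 1 rose and 4 fell, beside 15.9% higher and 13.9% lower. Tex19.1 fell by 0.53 in QT7 (SE 0.14) and by 1.21 in QT7L1 (SE 0.14). The list's median relative to QKO was 0.15 in QT7 and -0.22 in QT7L1. Against WT, 5 of the 17 rose in QT7 and 1 fell, beside 2.37% of all genes higher and 2.25% lower (median 0.83). Those that rose, named after their values were seen, were Mael (1.64 ± 0.25), Dazl (2.50 ± 0.50), Stk31 (1.32 ± 0.27), Tex14 (1.14 ± 0.21) and Tex19.1 (0.67 ± 0.14), and Tdrd1 fell by 1.54 (SE 0.36). The 2 QT7 clones lay far apart for Dazl, at 21.0 ± 13.9 CPM (SD, n = 2), against 3.67 ± 1.25 CPM in WT. They also differed for Stk31 (11.8 ± 4.56 CPM) and Tex14 (54.6 ± 18.2 CPM), and less for Mael (15.5 ± 0.00942 CPM) and Tex19.1 (43.7 ± 0.656 CPM). For QT7 against WT, DESeq2 called 10 of the 17 higher and 1 lower. In QT7L1 against WT, 0 of 17 were called with edgeR, beside 0.297% of all genes higher and 0.448% lower. At an unadjusted p under 0.05 there were 3, and DESeq2 called 2 higher (median 0.34). Between QT7 and QT7L1, edgeR called none of the 17, beside 0.00606% of all genes, and 7 had an unadjusted p under 0.05. DESeq2 called 3 of the 17 higher in QT7 and 0 lower.

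With single libraries left out, 3 to 10 germline genes were higher in QKO than in WT (3 without QKO replicate 2, 4 without WT replicate 1 or QKO replicate 1, 10 without either QT7 library). Tex19.1 passed under all 8 omissions in QKO and in QT7L1 relative to QKO, as did Syce1 and Sycp3 in QKO, but Stk31 did not pass in QKO without WT replicate 2 (adjusted p = 0.063), nor Tex19.1 in QT7 relative to QKO without either QKO library (highest 0.0961). Relative to QKO, 0 to 5 were higher in QT7 (0 without QKO replicate 2, 5 without QT7 replicate 2) and 0 to 3 lower (0 without either QKO library, 1 without either QT7L1 library). In QT7L1, 1 to 7 were lower (1 without QKO replicate 1 or QT7L1 replicate 2, 2 without QKO replicate 2 or QT7L1 replicate 1, 7 without either QT7 library). Against WT, the number higher in QT7 was 0 without WT replicate 1, 2 without WT replicate 2 or QKO replicate 2, 3 without QKO replicate 1 or QT7 replicate 1, and 10 without QT7 replicate 2. The 1 lower there passed only without QT7 replicate 2. In QT7L1 against WT the number higher was 1 without WT replicate 2 and 2 without either QT7 library.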

How the data were processed

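The mRNA of 8 libraries was sequenced after stranded preparation, per the labels. The submitters' processing notes name bcl2fastq 1.8.4, STAR 2.4.0f1 with mm10, HTSeq and DESeq2 2.1.8.3, with no strand or multi-mapping setting. The deposited file of each library gives whole-number read counts per Ensembl gene. Tables of each pair of groups, also deposited, give a normalised mean signal, a log2 fold change and its error, a test score and p-values, all computed by the authors.

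Counts as deposited were fitted in R 4.3.3 with edgeR 4.0.16: filterByExpr by group, TMM scaling, 1 quasi-likelihood model over 8 libraries (4 residual degrees of freedom), 2-sided tests and Benjamini-Hochberg adjustment over 16515 genes in each comparison, called under 0.05. Standard errors were derived from the fold change and its F statistic. Log2 CPM used a prior count of 2. The fit was tested on simulated data. DESeq2 1.42.0, RLE scaling, no filter, fits of single pairs of groups, a replicate block and omission of each library were run beside it. P-values measure the spread between clones or cultures. Permutation of 2 against 2 libraries could not reach the threshold and was not used.

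The members and the 13 gene lists were chosen with earlier results of these data known. All 9 members are named. From a list, up to 4 called genes per comparison with the smallest adjusted p and an average of at least 1 CPM could be named, and for each called member the 3 nearest profiles. Omission of single libraries for the list counts and list genes was added after seeing the data. Some genes that this rule names are not reported here.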

Additional observations from a re-analysis of the deposited data

How the results depend on the processing

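With 2 libraries per group, calls depended on single libraries. Of the fold changes of the 9 genes refitted under the alternatives, 629 kept direction and side of the threshold, 42 no longer passed, 13 newly passed and 18 changed sign, each of these from a value that had not passed. Scaling by RLE moved the median of all genes by at most 0.02 (log2).

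The members called, given as the range when each library was left out in turn (genes refiltered), were 1 to 5 in QKO against WT (5 in the full fit), 0 to 3 in QT7 against QKO (3), 1 to 4 in QT7L1 against QKO (3), 0 to 1 in QT7 against WT (1) and in QT7L1 against WT (1), and 0 to 0 in QT7 against QT7L1. They were lowest without WT replicate 2 or QKO replicate 2 in QKO against WT, without QKO replicate 2 or QT7 replicate 1 in QT7 against QKO, and without QKO replicate 2 or either QT7L1 library in QT7L1 against QKO. All genes called ranged from 1272 to 5497, 1432 to 4355, 1704 to 5971, 52 to 2023, 0 to 517 and 0 to 1564 in the same order (4366, 4449, 4912, 763, 123 and 1 in the full fit). The cause was not tested.

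Among the other settings, members called were 1 in QT7 against QKO with only the groups compared, 2 in QT7 against WT and 3 in QT7L1 against WT with no filter on low counts, and 2 in QT7L1 against WT with only the groups compared. For QT7 against WT all genes called were 1304 with DESeq2, 2203 with no filter and 117 with only the groups compared. For QT7L1 against WT they were 575, 1248 and 614, and for QT7 against QT7L1 232, 1030 and 20. The cause was not tested.

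The replicate number did not pair the samples: deviations of same-numbered libraries correlated at -0.205 to 0.164. A replicate block left every count of members called within 1.5 times and gave 2 genes called in QT7 against QT7L1.

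Signs that changed, in values that had not passed, were these, as ranges over the omissions. In QT7 against WT, Dnmt1 ran from -0.084 to 0.051 and Uhrf1 from -0.029 to 0.066. In QT7L1 against WT, Dnmt1 ran from -0.078 to 0.057. Tdg ran from -0.084 to 0.001 in QT7 against QKO and from -0.174 to 0.062 in QT7L1 against QKO, where Tet1 ran from -0.006 to 0.207. In QT7 against QT7L1 the ranges were -0.054 to 0.044 for Dnmt1, -0.095 to 0.082 for Dnmt3a, -0.17 to 0.219 for Dnmt3b, -0.075 to 0.138 for Tet1 and -0.101 to 0.135 for Tdg, and Dnmt1 was at 0.003 with no filter. Tet3 had the fewest reads of the members, at most 1050 counts in a library.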
